A study of Mus musculus with 9 samples.

Results

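Enteroendocrine cells are hormone-secreting cells scattered singly through the lining of the gut. The 10 genes described here encode what these cells make and store: the granule proteins *Chga* and *Chgb*, the peptide hormones *Gcg*, *Pyy*, *Sst*, *Cck*, *Nts* and *Insl5*, the serotonin-synthesis enzyme *Tph1*, and the transcription factor *Neurod1*. They were taken by name, as a set of known marker genes, from 18193 genes paired with the array. All 10 had a probe set of their own and were bright enough to be tested, *Neurod1* with 2 probe sets and the others with 1. The study compared the whole large intestine of mice carrying a mutation in *Muc2*, the gel-forming mucin of goblet cells, with that of wild-type mice. *Winnie* mice carry a cysteine-to-tyrosine change in the mucin on a C57BL/6 background, and *Eeyore* mice carry a serine-to-proline change and are labelled as mixed C57BL/6, NOD-SCID. Wild-type controls were C57BL/6. There were 3 mice per group, 1 array per mouse, all 8 wk old and labelled male, with distal and proximal large intestine in each sample.

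Enteroendocrine cells package peptide hormones and granins, the chromogranin and secretogranin proteins, into dense-core granules and release them in response to nutrients, microbial products and nervous input. In the colon the common types are L cells, which make peptides from the proglucagon gene together with PYY and, distally, INSL5, and enterochromaffin cells, which make most of the body's serotonin. D cells make somatostatin, which restrains the release of other hormones. Somatostatin, neurotensin, cholecystokinin and the granins are also made by nerve cells, and whole intestine holds enteric neurons beside the epithelium.

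The groups differed in ways that touch every comparison with wild-type. *Muc2* itself fell by 1.27 on the log2 scale in *Winnie* and by 1.13 in *Eeyore* mice (adjusted p = 8.01e-05 and 7.67e-05, limma). The wild-type libraries went against their male label: the signal of *Xist*, the RNA of the inactive X chromosome, was 7371 to 8261 in wild-type and 9.13 to 107 in mutant mice, and that of Y-linked *Kdm5d* was 47.5 to 64.6 and 519 to 667. Sex and *Muc2* allele therefore cannot be told apart in comparisons with wild-type, whereas both mutant groups matched the label. In *Eeyore* against wild-type mice the mixed background cannot be told apart from them either. Transcripts of the exocrine pancreas stood high in 2 wild-type mice. The signal of *Cpa1*, a pancreatic carboxypeptidase, was 17424 and 16468 in wild-type mice 1 and 2, 90.1 in mouse 3, and 82.5 to 2277 in mutant mice. Summed signals of 8 smooth muscle markers ran from 149375 to 155101 in wild-type, 69685 to 74419 in *Winnie* and 56581 to 62147 in *Eeyore* mice, those of 10 epithelial markers from 166771 to 173413, 193681 to 201394 and 210419 to 227623. Each sample was bulk tissue, so fewer cells of a type and less RNA per cell cannot be told apart.

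*Winnie* mice had more *Pyy* and *Insl5* and less *Sst* than wild-type mice, and *Eeyore* mice had more *Pyy* and less *Chga*, *Chgb* and *Sst*. The test was thus passed by 2 of the 10 genes upwards and 1 downwards in *Winnie* mice, leaving 7, and by 1 upwards and 3 downwards in *Eeyore* mice, leaving 6. Of all 11453 tested genes, 11.3% were called higher and 11.9% lower for *Winnie*, and for *Eeyore* 14.0% higher and 16.6% lower, so the shares among the 10 genes were not far from those of the whole array. Their median log2 fold change was 0.07 for *Winnie* and -0.22 for *Eeyore*, beside -0.05 and -0.04 over all tested genes. Both strains were set against the same 3 wild-type mice. Between the strains, 2 of the 10 genes were lower in *Eeyore* mice (*Chga* and *Chgb*), where 1.30% of all tested genes were lower and 1.29% higher.

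Counted by overlap of single mice instead, 2 of the 10 genes lay wholly above wild-type in *Winnie* mice (19.7% of all tested genes did) and 1 wholly below (24.3%). In *Eeyore* mice *Pyy* lay wholly above (20.7%) and 4 genes, *Chga*, *Chgb*, *Sst* and *Nts*, wholly below (25.3%). *Eeyore* mice lay wholly below *Winnie* mice for *Chga* and *Chgb* (10.7%) and wholly above them for *Gcg* (10.2%), although *Gcg* did not pass the test there (0.27, adjusted p = 0.365).

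**Figure D1:**
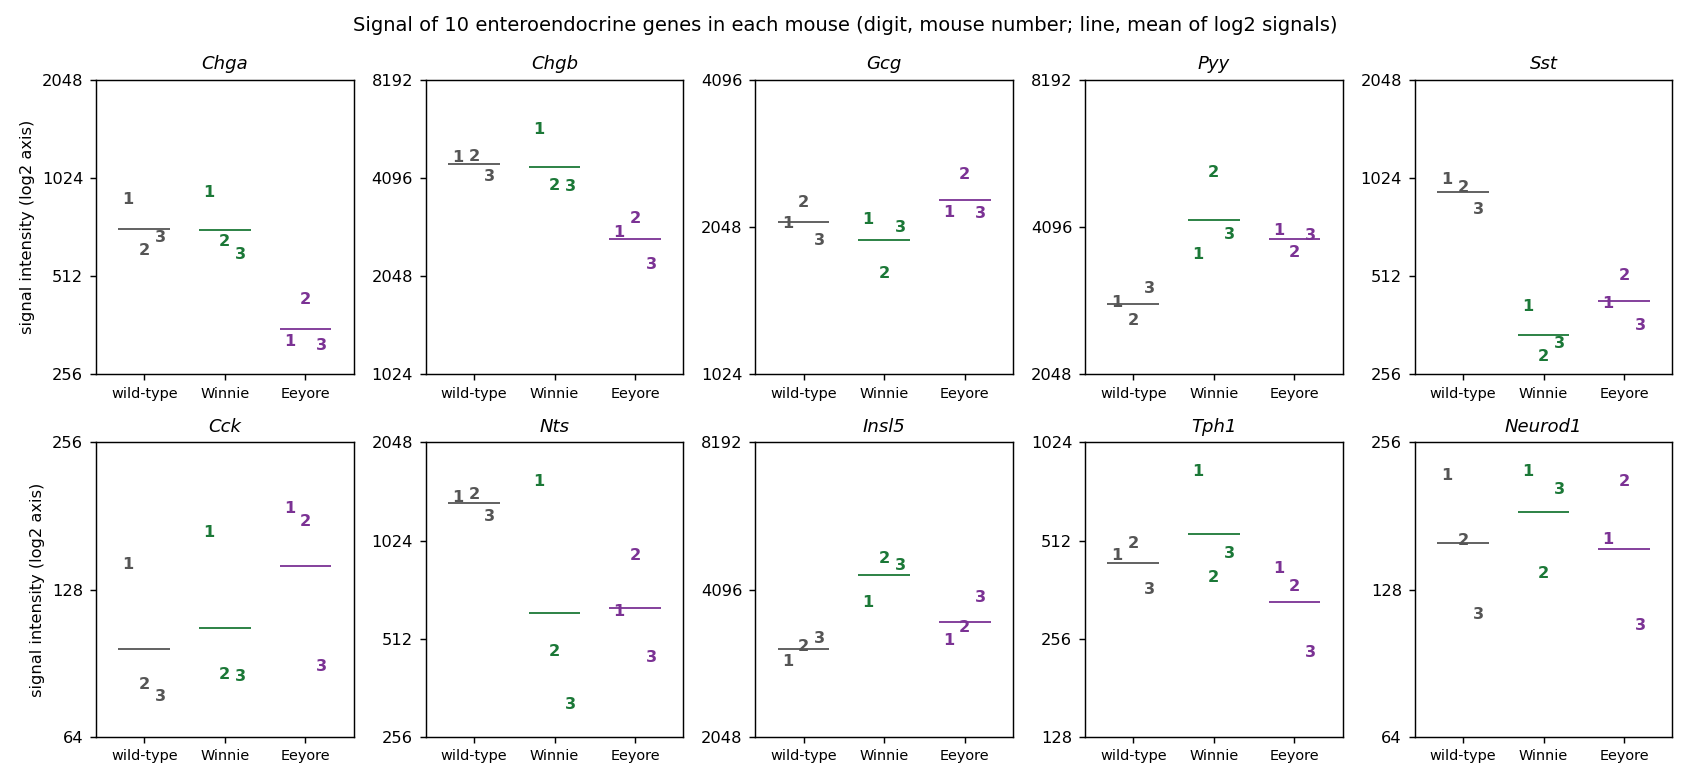
Signal intensity of the 10 genes (log2 axes, a separate scale for each gene) in wild-type, *Winnie* and *Eeyore* mice. Digits are the mouse numbers and lines the group means of log2 signals. *Sst* separates both mutant groups from wild-type, *Chga* and *Chgb* separate *Eeyore* mice from the other groups, and *Pyy* lies higher in both mutant groups.

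The granule proteins set *Eeyore* mice apart from both other groups. *Chga* encodes chromogranin A, an acidic granule protein used across tissues as the marker of endocrine cells. Its signal was 878, 615 and 674 in the wild-type mice, 923, 652 and 595 in *Winnie* mice, and 321, 434 and 314 in *Eeyore* mice. The *Eeyore* mice all lay below every other mouse, and the wild-type and *Winnie* values overlapped. *Chga* fell by 1.02 on the log2 scale in *Eeyore* mice (SE 0.21, adjusted p = 0.00436, limma), a 2.02-fold lower signal, whereas the difference in *Winnie* mice was -0.01 (95% interval -0.47 to 0.46, adjusted p = 0.984).

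*Chgb*, which encodes chromogranin B, the companion granin, had signals of 4727, 4768 and 4124 in wild-type, 5780, 3888 and 3856 in *Winnie* mice, and 2786, 3079 and 2215 in *Eeyore* mice. As with *Chga*, every *Eeyore* mouse lay below every other mouse. *Chgb* fell by 0.76 in *Eeyore* mice (SE 0.17, adjusted p = 0.00522, limma) and differed by -0.03 in *Winnie* mice (95% interval -0.39 to 0.33, adjusted p = 0.906). Set directly against *Winnie*, *Eeyore* mice were lower by -1.01 for *Chga* (SE 0.21, adjusted p = 0.0288) and by -0.73 for *Chgb* (SE 0.17, adjusted p = 0.0409). The size of this difference rests on no wild-type mouse and both groups matched their sex label, but the strains also differ in background. The wild-type mice were in the same fit, however, and so entered its SE and p-values. In the alternative that fitted only the groups compared, neither gene was called (adjusted p = 0.0552 for *Chga* and 0.0925 for *Chgb*, limma). The call between strains was lost for *Chga* in 6 of 21 alternatives, among them without *Winnie* mouse 1 (adjusted p = 0.109), *Eeyore* mouse 1 (0.0534) or *Eeyore* mouse 3 (0.0927), and for *Chgb* in 10 of 21, among them without wild-type mouse 1 (0.0631) or 2 (0.0713), *Winnie* mouse 1 (0.115) or 3 (0.0642), or *Eeyore* mouse 2 (0.0530) or 3 (0.131).

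The promoters of the 3 genes that fell in *Eeyore* mice are shown because each holds a half-site of the cAMP response element (CRE). Through this sequence cAMP signalling is known to act on the somatostatin and chromogranin genes. The windows are the 250 bases before the RefSeq start of transcription on GRCm38.p6, 5′ to 3′ on the gene's strand. Capitals mark the half-site TGACG on either strand. The *Chga* window is chr12:102554691-102554940 on the plus strand, the *Chgb* window chr2:132781392-132781641 on the plus strand, and the *Sst* window chr16:23890845-23891094 on the minus strand. The *Sst* window lies inside the span annotated to the gene (chr16:23889573-23891342), whose annotation includes a more upstream start.
Chga: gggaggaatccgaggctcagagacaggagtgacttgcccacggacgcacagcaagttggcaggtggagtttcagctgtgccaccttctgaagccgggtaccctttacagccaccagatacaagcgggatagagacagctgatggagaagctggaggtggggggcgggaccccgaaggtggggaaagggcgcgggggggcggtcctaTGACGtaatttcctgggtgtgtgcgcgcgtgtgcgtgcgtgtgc
Chgb: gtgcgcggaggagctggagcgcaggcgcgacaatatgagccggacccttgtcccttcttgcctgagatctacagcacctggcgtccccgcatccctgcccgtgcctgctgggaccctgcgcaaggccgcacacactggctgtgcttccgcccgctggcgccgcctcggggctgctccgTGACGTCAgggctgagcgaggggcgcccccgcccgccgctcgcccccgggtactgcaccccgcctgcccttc
Sst: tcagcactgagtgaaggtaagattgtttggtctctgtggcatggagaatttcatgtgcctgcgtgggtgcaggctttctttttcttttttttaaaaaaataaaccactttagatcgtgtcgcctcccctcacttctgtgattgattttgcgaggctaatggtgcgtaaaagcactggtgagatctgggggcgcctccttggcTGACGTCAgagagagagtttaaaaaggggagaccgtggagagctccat

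In *Chga* the half-site lay from -44 to -40, counted back from the start. In *Chgb* and *Sst* a half-site on the plus strand overlapped one on the minus strand by 2 bases, which together spell the whole palindromic element, from -72 to -65 in *Chgb* and from -48 to -41 in *Sst*. A half-site stood in 17.8% of 32851 annotated promoters of the same length, and the overlapping pair in 1.55%. Counted by gene over their 13 promoters, 6 of the 10 genes held a half-site, a different unit from the share of single promoters. *Cck*, *Nts* and *Tph1* were among the 6 and did not pass the test in either strain. Of the other motifs searched on both strands, CAGATG, an E-box of the kind that NEUROD1 binds, was in promoters of *Cck*, *Gcg* and *Insl5* and in 14.4% of all promoters, and TATAAA was in those of *Gcg* and *Insl5* and in 12.4%. Neither motif stood in the windows shown. A match is a description of the sequence and not a measured site, and its part in the falls was not tested.

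*Sst*, which encodes somatostatin, was the 1 of the 6 hormone genes that fell in both strains. The signal of *Sst* was 1014, 957 and 818 in wild-type mice, 414, 291 and 317 in *Winnie* mice, and 421, 515 and 362 in *Eeyore* mice. Every mutant mouse lay below every wild-type mouse, and the strains overlapped. *Sst* fell by 1.46 on the log2 scale in *Winnie* (SE 0.19, adjusted p = 0.000503) and by 1.11 in *Eeyore* mice (SE 0.19, adjusted p = 0.0014, both limma), that is to signals 2.75-fold and 2.16-fold lower. With both strains together, 6 mutant mice against 3 wild-type, the exact two-sided permutation test gave p = 0.0238, the smallest this design allows. The strains did not separate (0.35, 95% interval -0.07 to 0.76, adjusted p = 0.427).

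Markers of 2 other sources of *Sst* RNA also varied, those of the pancreas among the wild-type mice and those of enteric neurons between wild-type and mutant mice. Islets of the pancreas also make somatostatin, and *Ins2*, which encodes insulin, had signals of 313 and 279.5 in wild-type mice 1 and 2, 16.7 in wild-type mouse 3, and 9.60 to 107 in mutant mice. Summed signals over the 6 pancreas genes with a probe set ran from 11793 to 82511 in wild-type, 11137 to 15589 in *Winnie* and 15056 to 25604 in *Eeyore* mice. Wild-type mouse 3, in which *Cpa1* and *Ins2* were low, had an *Sst* signal of 818, the lowest of its group and above all 6 mutant mice. Without wild-type mice 1 and 2, an alternative added after the values were seen, *Sst* differed by -1.28 in the *Winnie* (adjusted p = 0.0533) and -0.93 in the *Eeyore* strain (adjusted p = 0.0854), with the lone wild-type mouse assumed to vary like the other groups. In that fit none of the 10 genes was called in any of the 3 comparisons by limma, although 3, 3 and 4 had an unadjusted p under 0.05. The share of all tested genes called in that fit was not counted, so its calls are no result about the 10 genes. Enteric neuron markers fell as well: summed signals over 13 genes ran from 6440 to 7041 in wild-type, 3130 to 4440 in *Winnie* and 2486 to 3296 in *Eeyore* mice. The part of pancreatic or neuronal RNA in the fall of *Sst* was not tested.

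**Figure D2:**
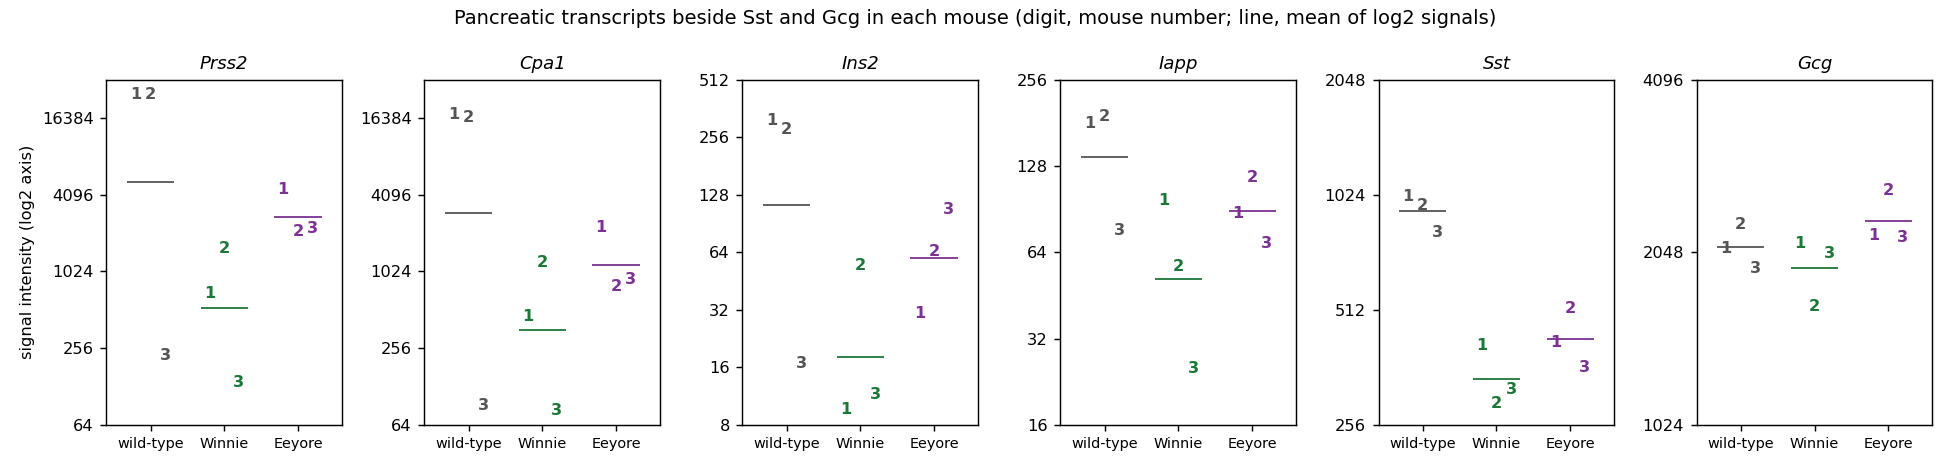
Signal intensity (log2 axes) of the pancreatic transcripts *Prss2*, *Cpa1*, *Ins2* and *Iapp* beside *Sst* and *Gcg* in each mouse, with digits for mouse numbers and lines for means of log2 signals. Wild-type mice 1 and 2 stand high in the 4 pancreatic transcripts and mouse 3 does not. The *Sst* signals of wild-type mice 1, 2 and 3 are 1014, 957 and 818.

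*Pyy*, which encodes peptide YY, a hormone that slows transit and curbs appetite, had signals of 2868, 2640 and 3072 in wild-type, 3605, 5296 and 3961 in *Winnie* mice, and 4026, 3633 and 3937 in *Eeyore* mice. Every mutant mouse lay above every wild-type mouse. *Pyy* rose by 0.57 on the log2 scale in *Winnie* (SE 0.14, adjusted p = 0.0119) and by 0.44 in *Eeyore* mice (SE 0.14, adjusted p = 0.0304, both limma), and the exact permutation test of 6 mutant against 3 wild-type mice gave p = 0.0238. The strains differed by -0.13 (95% interval -0.43 to 0.16).

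*Insl5* encodes insulin-like peptide 5, an orexigenic hormone of distal L cells. Its signal was 2922, 3131 and 3247 in wild-type, 3859, 4740 and 4587 in *Winnie* mice, and 3222, 3433 and 3945 in *Eeyore* mice. All *Winnie* mice lay above all wild-type mice, and the *Eeyore* values overlapped both. *Insl5* rose by 0.50 in *Winnie* mice (SE 0.11, adjusted p = 0.00963, limma), and in *Eeyore* mice the difference was 0.18 (95% interval -0.06 to 0.43, adjusted p = 0.241). The difference between the strains, -0.31, did not pass the test (adjusted p = 0.209).

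*Gcg*, which encodes proglucagon, the precursor of GLP-1 and GLP-2, had signals of 2083, 2292 and 1918 in wild-type, 2126, 1647 and 2040 in *Winnie* mice, and 2192, 2622 and 2177 in *Eeyore* mice. The wild-type values overlapped those of both strains. *Gcg* differed by -0.12 in *Winnie* (95% interval -0.41 to 0.17, adjusted p = 0.552) and by 0.15 in *Eeyore* mice (95% interval -0.14 to 0.44, adjusted p = 0.418, limma). In *Winnie* mice the interval stops short of the 0.57 by which *Pyy* rose, whereas in *Eeyore* mice it includes the 0.44 by which *Pyy* rose. The difference between *Gcg* and *Pyy* was not tested.

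The calls of *Pyy* and *Insl5* changed with how the arrays were brought to one scale. Relative to the median change of all tested probe sets, *Pyy* was higher by 0.66 in *Winnie* and 0.53 in *Eeyore* mice and *Insl5* by 0.59 and 0.27, and with quantile normalization these values were 0.44 and 0.31 for *Pyy* and 0.37 and 0.07 for *Insl5*. On the scale of the epithelial markers themselves, *Pyy* was no longer called in *Winnie* mice (adjusted p = 0.0661) or *Eeyore* mice (0.529), nor *Insl5* in *Winnie* mice (0.0635), whereas with median centring *Insl5* (0.00927) and *Gcg* (0.0154) were called higher in *Eeyore* mice. *Pyy* also lost its call in *Eeyore* mice with quantile normalization (0.0815), without the intensity trend (0.0802), and without wild-type mouse 1 (0.0712) or 2 (0.108) or *Eeyore* mouse 1 (0.0735) or 3 (0.0686), and in *Winnie* mice without wild-type mouse 2 (0.0543).

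**Figure D3:**
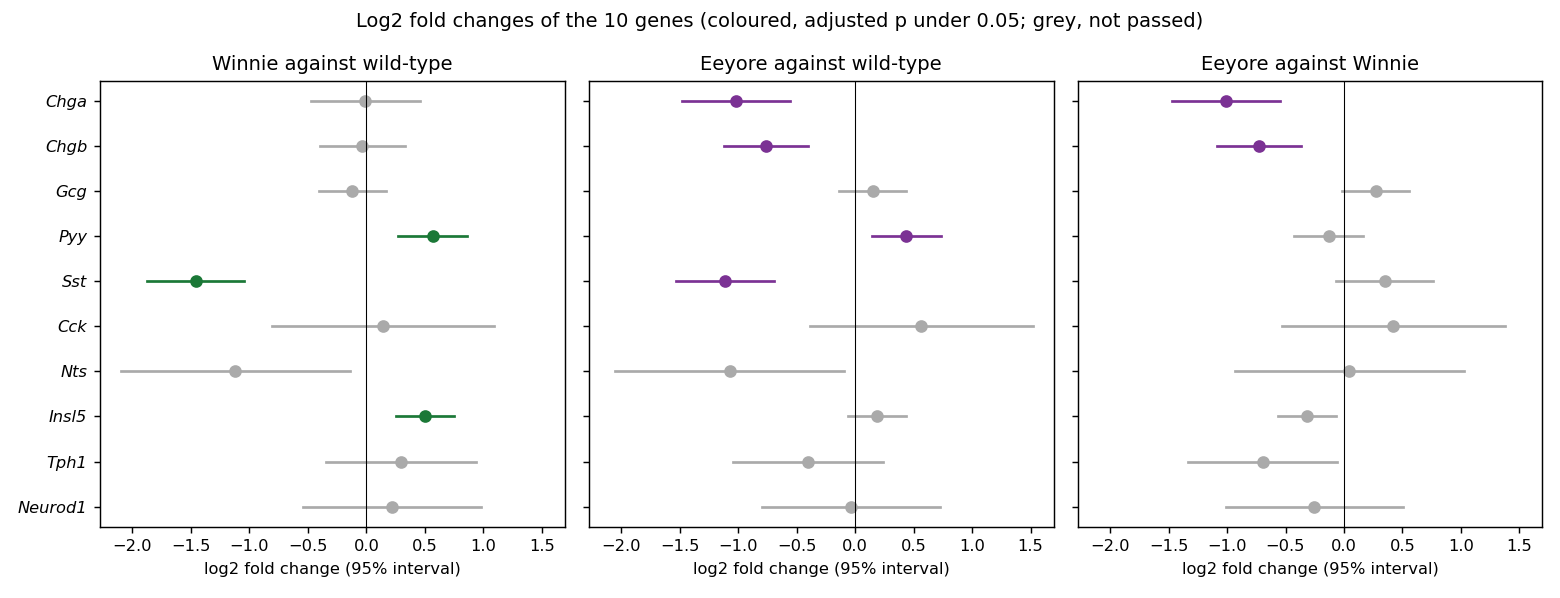
Log2 fold changes of the 10 genes with 95% intervals in *Winnie* against wild-type, *Eeyore* against wild-type and *Eeyore* against *Winnie*, with coloured points for an adjusted p under 0.05 and grey for the others. *Sst* lies at -1.46 and -1.11 against wild-type, while *Chga* and *Chgb* lie near 0 in *Winnie* and at -1.02 and -0.76 in *Eeyore* mice.

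Neurotensin, which acts on gut motility and fat absorption, differed widely among *Winnie* mice. The signal of *Nts* was 1389, 1420 and 1217 in wild-type, 1551, 468 and 322 in *Winnie* mice, and 620.0, 924 and 449 in *Eeyore* mice. All *Eeyore* mice lay below all wild-type mice, whereas *Winnie* mouse 1 lay above them and *Winnie* mice 2 and 3 far below. *Nts* differed by -1.12 in *Winnie* (SE 0.45, adjusted p = 0.0947) and -1.07 in *Eeyore* mice (SE 0.45, adjusted p = 0.0916, limma), and neither passed the test. Without *Winnie* mouse 1 the differences were -1.79 (adjusted p = 0.00201) and -1.07 (adjusted p = 0.0081).

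The remaining hormone, *Cck*, was dim. Its product, cholecystokinin, drives gallbladder contraction and pancreatic secretion and is made mainly in the small intestine. Its signal was 144, 81.7 and 77.3 in wild-type, 167, 85.9 and 84.8 in *Winnie* mice, and 187, 176 and 88.9 in *Eeyore* mice, near the median signal of the arrays (119 to 129 in wild-type and 88.1 to 99.5 in mutant mice). The groups overlapped. *Cck* differed by 0.14 in *Winnie* (95% interval -0.81 to 1.09, adjusted p = 0.846) and 0.56 in *Eeyore* mice (95% interval -0.39 to 1.52, adjusted p = 0.356), and both intervals include a rise of 2-fold.

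*Tph1* encodes tryptophan hydroxylase 1, the rate-limiting enzyme of serotonin synthesis in enterochromaffin cells. Its signal was 459, 502 and 362 in wild-type, 836, 396 and 466 in *Winnie* mice, and 421, 371 and 232 in *Eeyore* mice. *Winnie* mouse 1 stood above all others, and all groups overlapped. *Tph1* differed by 0.30 in *Winnie* (95% interval -0.35 to 0.94, adjusted p = 0.504) and by -0.40 in *Eeyore* mice (95% interval -1.04 to 0.24, adjusted p = 0.328, limma).

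*Neurod1* encodes a basic helix-loop-helix factor that acts late in enteroendocrine differentiation. Its brighter probe set had signals of 219, 162 and 114 in wild-type, 223, 138 and 205 in *Winnie* mice, and 162, 213 and 108 in *Eeyore* mice. The groups overlapped fully. The differences were 0.22 in *Winnie* (95% interval -0.54 to 0.98) and -0.04 in *Eeyore* mice (95% interval -0.80 to 0.72), and the dimmer probe set gave -0.06 and -0.10.

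Within a group, the 10 genes tended to be high or low in the same mice. *Winnie* mouse 1 had the highest signal of its group for 8 of the 10 genes and the lowest for the other two, *Pyy* and *Insl5*. *Eeyore* mouse 3 was lowest in its group for 8 of the 10, and its *Insl5* was the highest. Wild-type mouse 3 was lowest for 7 of the 10 and highest for *Pyy* and *Insl5*. In a group of 3 the spread of the 10 genes was thus shared between them, and they are not independent observations of these mice. A pair of posterior Hox genes, which mark the distal end of the gut and were chosen after their values were seen, varied among the same mice. The signal of *Hoxb13* was 4717, 4818 and 6062 in wild-type, 3451, 7289 and 5657 in *Winnie* mice, and 5865, 6125 and 7793 in *Eeyore* mice, and that of *Hoxd13* was 1644, 1939 and 2480 in wild-type, 1148, 3226 and 1428 in *Winnie* mice, and 1623, 2139 and 4262 in *Eeyore* mice. Both were highest in wild-type mouse 3 and *Eeyore* mouse 3 and lowest in *Winnie* mouse 1. Their part in the spread was not tested.

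**Figure D4:**
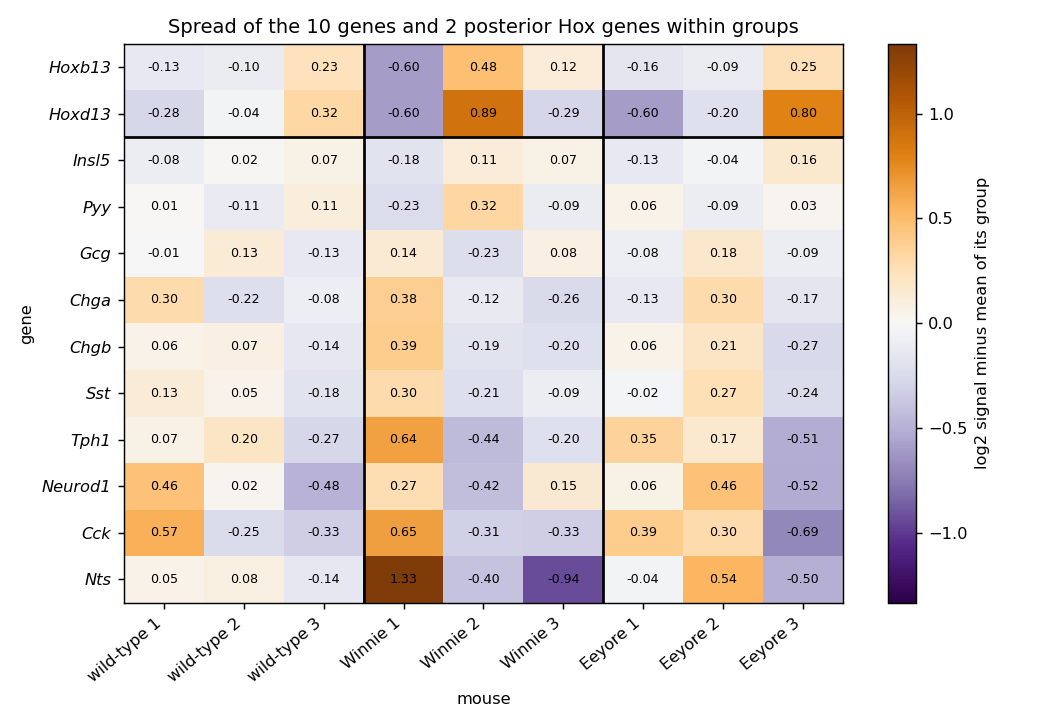
Deviation of each mouse from its group mean (log2 signal) for the 10 genes and for *Hoxb13* and *Hoxd13*, with orange for higher and purple for lower than the group mean. *Nts* in *Winnie* mouse 1 deviates most, by 1.33, and *Pyy* and *Insl5* deviate downwards in that mouse while the other 8 genes deviate upwards.

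Among genes that process prohormones and build granules, none rose in either strain, nor did any lie higher at an unadjusted p under 0.05. Of the 16 genes of this list that were tested, *Winnie* mice had 7 that fell and *Eeyore* mice 10, with 9 and 6 not passing. Over the whole array 11.9% and 16.6% of tested genes fell. The median of the list was -0.74 and -0.96, beside -0.05 and -0.04 over all tested genes. *Scg2*, which encodes secretogranin II, had signals of 981, 895 and 736 in wild-type, 451, 316 and 424 in *Winnie* mice, and 301, 267 and 278 in *Eeyore* mice, with no overlap between wild-type and either strain. It fell by 1.14 (adjusted p = 0.00166) and 1.62 (adjusted p = 0.000124). *Cpe*, which encodes the carboxypeptidase that trims prohormones, fell by 1.18 (adjusted p = 0.00171) and 1.59 (adjusted p = 0.000184) in its bright probe set, and a second probe set was too dim to test. *Scg3*, which encodes a granin that anchors cargo to the granule membrane, fell by 1.22 (adjusted p = 0.0107, lost without wild-type mouse 2) and 1.08 (adjusted p = 0.0145, lost without wild-type mouse 1 or 2). *Resp18*, which encodes an endocrine granule protein, fell by 1.69 in *Eeyore* mice (adjusted p = 0.00662). Neurons also use these proteins: of 11 tested enteric neuron genes, 7 were lower in the *Winnie* and 10 in the *Eeyore* strain, with medians of -1.16 and -1.51, and their part in the granule list was not tested. *Chga* and *Chgb*, which are no part of this list, differed by -0.01 and -0.03 in *Winnie* mice.

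Of 12 tested genes for other gut hormones and peptides, 4 passed, all lower, in each strain and 8 did not, with medians of -0.43 and -0.37. *Calcb*, *Nmu* and *Grp* fell in both strains. *Calcb*, which encodes a calcitonin gene-related peptide found in enteric neurons, had signals of 526, 590.1 and 598 in wild-type, 279, 239 and 190.1 in *Winnie* mice, and 332, 360 and 247 in *Eeyore* mice, and fell by 1.29 (adjusted p = 0.00165) and 0.88 (adjusted p = 0.00844). *Nmu*, which encodes neuromedin U, fell by 1.24 (adjusted p = 0.00326) and 0.80 (adjusted p = 0.0206), and *Grp*, which encodes gastrin-releasing peptide, fell by 1.65 (adjusted p = 0.012) and 1.28 (adjusted p = 0.0294). All 3 peptides are made by enteric neurons. In *Eeyore* mice the calls of all 3 were lost with median centring, that of *Nmu* also with quantile normalization, and that of *Grp* also without the intensity trend. The call of *Nmu* was lost without wild-type mouse 1 or 3 or *Eeyore* mouse 1, and that of *Grp* without any 1 of the wild-type mice or *Eeyore* mouse 2 or 3. *Guca2b*, which encodes the epithelial peptide uroguanylin, had signals of 765, 741 and 659 in wild-type, 371, 317 and 323 in *Winnie* mice, and 716, 562 and 503 in *Eeyore* mice, and fell by 1.10 in *Winnie* mice (adjusted p = 0.0013). Its level was higher by 0.80 in *Eeyore* than in *Winnie* mice (adjusted p = 0.0296), a call lost in 10 of 21 alternatives, among them without wild-type mouse 2, *Winnie* mouse 2 or 3, or *Eeyore* mouse 1 or 2.

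Receptors by which enteroendocrine cells sense nutrients and microbial products included the gene with the largest called difference between the strains in these lists. *Ffar2*, which encodes a receptor for short-chain fatty acids, had signals of 967, 1126 and 819 in wild-type, 356, 171 and 339 in *Winnie* mice, and 1042, 1143 and 645 in *Eeyore* mice. The *Winnie* mice all lay below all others, and the *Eeyore* and wild-type values overlapped. *Ffar2* fell by 1.81 in *Winnie* mice (adjusted p = 0.00144), differed by -0.07 in *Eeyore* mice (adjusted p = 0.876), and was higher by 1.74 in *Eeyore* than in *Winnie* mice (adjusted p = 0.00635, limma), a call kept in all 21 alternatives. *Kcnj11*, which encodes the pore of the ATP-sensitive potassium channel, had signals of 633, 719 and 1097 in wild-type, 698, 792 and 673 in *Winnie* mice, and 378, 322 and 235 in *Eeyore* mice. It fell by 1.38 in *Eeyore* mice (adjusted p = 0.00114) and was lower by -1.23 than in *Winnie* mice (adjusted p = 0.0126). The calls of *Kcnj11* were lost with the mean over its probe sets, and the call between strains also without the intensity trend. Both genes are also expressed in other cells of the gut wall. Of 6 tested genes of this list, 1 rose and 2 fell in the *Winnie* strain and 1 fell in the *Eeyore* strain. The other 3 and 5 did not pass. *Ffar4* was the gene that rose (0.57, adjusted p = 0.0331, limma), a call lost without wild-type mouse 1 or 2 or *Winnie* mouse 1. Among all tested genes, 11.3% were higher and 11.9% lower for *Winnie*, and 14.0% and 16.6% for *Eeyore*.

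In the handling of serotonin and other amines, 9 genes were tested. *Gch1*, which encodes the first enzyme in the synthesis of tetrahydrobiopterin, the cofactor of tryptophan hydroxylase, had signals of 1042, 814 and 995 in wild-type, 2528, 2990.1 and 2013 in *Winnie* mice, and 3005, 2316 and 2332 in *Eeyore* mice. Every mutant mouse lay above every wild-type mouse, and *Gch1* rose by 1.39 (adjusted p = 0.000309) and 1.42 (adjusted p = 0.000138), in all 21 alternatives. *Qdpr*, which encodes the enzyme that regenerates this cofactor, had signals of 8098, 7854 and 7539 in wild-type, 8248, 5757 and 6905 in *Winnie* mice, and 4185, 5147 and 3832 in *Eeyore* mice. It fell by 0.85 in *Eeyore* mice (adjusted p = 0.000995) and was lower by -0.66 than in *Winnie* mice (adjusted p = 0.0256, lost in 8 of 21 alternatives, among them without wild-type mouse 2, *Winnie* mouse 1 or 3, or *Eeyore* mouse 3). All *Eeyore* mice lay below all other mice for *Qdpr*, as for *Chga*. The other 8 genes in *Winnie* and 7 in *Eeyore* mice did not pass. Over the whole array 11.3% of tested genes rose and 11.9% fell in *Winnie* mice, and 14.0% and 16.6% in *Eeyore* mice. The serotonin transporter gene *Slc6a4* differed by -0.36 (adjusted p = 0.516) and 0.48 (adjusted p = 0.344), and *Ddc*, which encodes the decarboxylase that completes serotonin, by 0.16 (adjusted p = 0.359) and 0.27 (adjusted p = 0.102).

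Of 20 transcription factors of the enteroendocrine lineage, 16 had a probe set and 7 were bright enough to test. *Neurog3*, *Pax4*, *Pax6*, *Nkx2-2* and *Insm1*, which act within the lineage, were among the 9 that were too dim. The *Winnie* strain had 2 of these 7 lower, with 5 not passing, and the *Eeyore* strain had 3 lower, with 4 not passing. Over the whole array 11.9% and 16.6% of tested genes were lower, and with 7 genes these counts are no result about the lineage. *Foxa2*, which encodes a forkhead factor that also acts in goblet cells, had signals of 1375, 1008 and 1144 in wild-type, 791, 534 and 1139 in *Winnie* mice, and 419, 542 and 451 in *Eeyore* mice, and fell by 1.32 in *Eeyore* mice (adjusted p = 0.00197). *Atoh1*, which encodes the factor that commits cells to the secretory lineage, was 2334, 2253 and 1931 in wild-type, 1379.8, 1321 and 1806 in *Winnie* mice, and 2109, 2385 and 2146 in *Eeyore* mice. It fell by 0.54 in *Winnie* mice (adjusted p = 0.0165, lost without wild-type mouse 1 or 2 or *Winnie* mouse 2) and differed by 0.03 in *Eeyore* mice (adjusted p = 0.892). *Sox4*, which encodes a factor that also acts in progenitors, fell by 0.54 (adjusted p = 0.00987) and 0.60 (adjusted p = 0.00392). The *Sox4* calls were lost in both strains with median centring and with the mean over its probe sets. That of *Atoh1* was lost with median centring too.

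Of 23 receptors and other partners that take up or clear these hormones, 7 were bright enough to test. Only *Sort1*, which encodes sortilin, a receptor that binds neurotensin among other ligands, passed in either strain, falling by 0.60 (adjusted p = 0.00578) and 0.45 (adjusted p = 0.0172) and keeping the call in 18 and 15 of 21 alternatives, in *Eeyore* mice not without wild-type mouse 2 or *Eeyore* mouse 2. The somatostatin receptor gene *Sstr2* was dim and differed by -0.86 (adjusted p = 0.336) and -1.22 (adjusted p = 0.151). *Dpp4*, which encodes the peptidase that inactivates GLP-1, differed by -0.12 (adjusted p = 0.642) and 0.13 (adjusted p = 0.595). Lower calls made up 11.9% of all tested genes in *Winnie* and 16.6% in *Eeyore* mice.

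**Figure D5:**
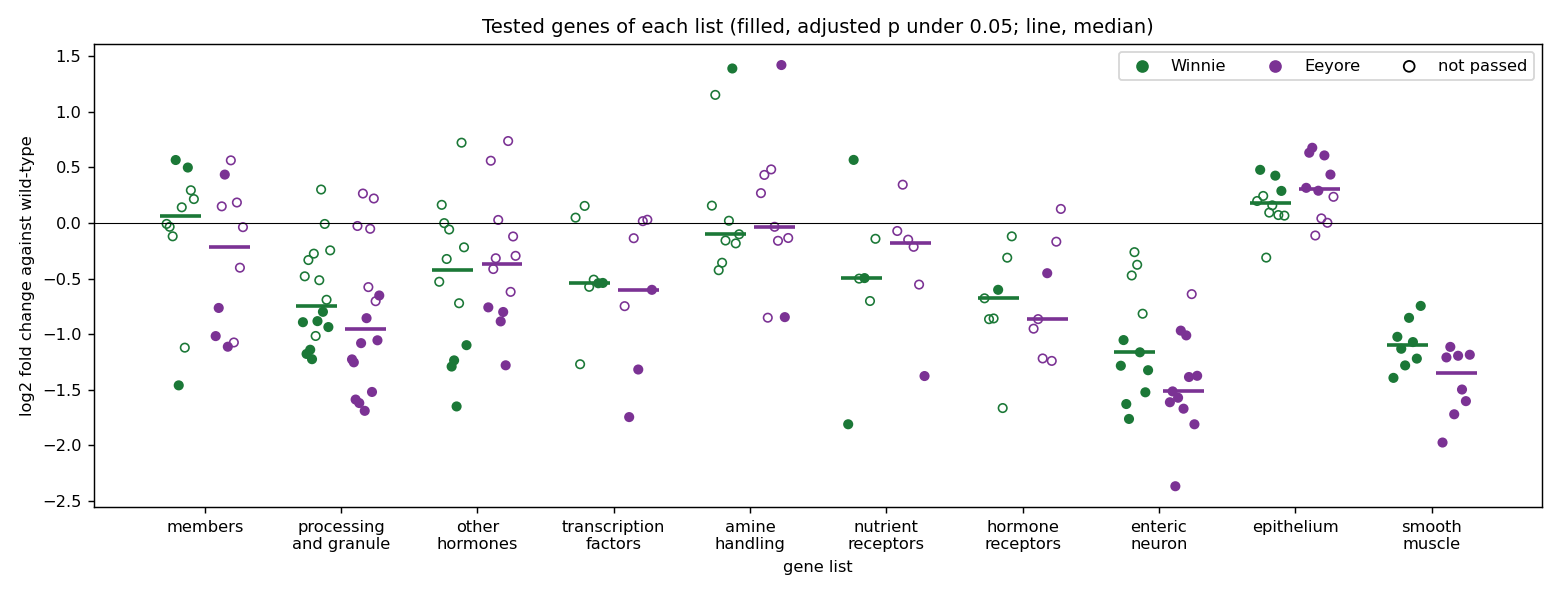
Log2 fold changes of tested genes in each list against wild-type, for *Winnie* (green) and *Eeyore* mice (purple), with filled points for an adjusted p under 0.05, open points for the others and lines for medians. The 10 enteroendocrine genes have medians of 0.07 and -0.22, against -0.74 and -0.96 for processing and granule genes, -1.16 and -1.51 for enteric neuron genes and -1.10 and -1.35 for smooth muscle genes.

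Marker lists of the other cells in the wall moved in opposite directions. All 8 smooth muscle genes fell in both strains, with medians of -1.10 and -1.35, and of 10 epithelial genes 3 were higher in the *Winnie* and 6 in the *Eeyore* strain, with medians of 0.18 and 0.30. On the scale of the epithelial genes 2 and 3 of these 10 were called higher. That scale makes the mean of the 10 genes equal in all mice, so these counts are no test of them. Over the alternatives at most 2 of the 10 were called lower in *Eeyore* and 0 in *Winnie* mice. Among all tested genes, 11.9% were lower and 11.3% higher for *Winnie*, and 16.6% and 14.0% for *Eeyore*. Of the 4 tested pancreas genes, only *Cela1* passed, falling by 1.18 in *Winnie* mice (adjusted p = 0.0392), and neither of the 2 tested glial genes passed in either strain. Of 9 mast cell genes, which bear on *Tph1* because mast cells also make serotonin, 2 were tested and *Kit*, which also marks the pacemaker cells of the gut wall, fell by 1.64 and 1.97 (adjusted p = 0.000523 and 9.86e-05). The mast cell protease genes *Mcpt1* and *Mcpt2* were not tested, because their mean log2 signal over all mice lay below the filter. Their signals were at most 12 in wild-type, 90.9 to 207 in *Winnie* and 231 to 442 in *Eeyore* mice. Every mutant mouse thus lay above every wild-type mouse, the opposite direction to *Kit*. The part of these lists in the results of the 10 genes was not tested.

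The genes whose signals followed those of *Chga*, *Pyy* and *Gcg* most closely over the 9 arrays are given as a description, since the arrays share the group differences. For *Chga* they were *Pcbp2* (Pearson's r 0.95), *Qdpr* (0.94), *Ttll11* (0.94), *Zfp507* (0.93) and *Med23* (0.93). For *Pyy* they were *Alyref* (0.99), *Mad2l1* (0.97), *Skap2* (0.97), *Melk* (0.97) and *S100a8* (0.97), and for *Gcg* they were *Cd1d1* (0.94), *Aldh3a2* (0.94), *Pnkd* (0.93), *Spon1* (0.92) and *Mlec* (0.92). No gene of the other lists but *Qdpr* was among them. By deviations from the group means instead, the 5 closest to *Gcg* were *Gphn* (0.96), *Cnih4* (0.95), *Ghdc* (0.94), *Acbd4* (0.94) and the enteric neuron gene *Prph* (0.94). How often values this high arise by chance among 11453 genes was not tested.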

How the data were processed

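RNA from the large intestine of 9 mice was measured on Affymetrix arrays. The deposited values are linear signal intensities, which the authors scaled so that each array's trimmed mean over its 45101 probe sets was 500. The summarisation method and detection calls are not given in the sources used here. Signals were put on the log2 scale. After control probe sets had been removed, 45037 were left, and the 22519 whose mean log2 signal reached 6.43 (a signal of 85.9) were tested. For each gene the probe set with the highest mean stood for it, giving 11453 genes. Group means were fitted over all 9 mice with limma 3.58.1 (lmFit, eBayes with an intensity trend) in R 4.3.3, with Benjamini-Hochberg adjustment over all tested probe sets and a threshold of 0.05. Adjusted p-values are from this fit unless an alternative is named beside them. It was tested on simulated data. Single genes were also compared by exact permutation (scipy 1.17.1), which with 3 against 3 mice cannot go below p = 0.1. Precision is limited by 3 arrays per group. The labels do not say whether mice were littermates. The 10 genes, the companion lists and the tests were chosen with earlier results of these data known. The rule for naming took all 10 genes, from each list the 3 largest changes that passed in each strain, every listed gene that passed between strains, and the 5 genes most like *Chga*, *Pyy* and *Gcg*. The text carries a part of these, chosen after their values were seen, as were some listed genes that did not pass and 2 Hox genes. Mouse numbers were not used as pairs in the main fit. Over 9 pairs with the same number, correlations of deviations lay between -0.01 and 0.16. Those of pairs with different numbers lay between -0.095 and 0.023. All were low, but whether mice of the same number shared a step of processing cannot be told from them. Promoter windows and positions are from RefSeq on GRCm38.p6. Alternatives were quantile normalization, centring on the median or on epithelial markers, a pseudocount of 32, no filter or one at the 75th percentile, other variance models, a fit of only 2 groups, a block for mouse number, the mean over probe sets, and leaving out each mouse. Leaving out wild-type mice 1 and 2 together, and running the listed genes through the alternatives, were added after the values were seen.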

Additional observations from a re-analysis of the deposited data

Results flagged for a closer look

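The granin genes differed between the 2 mutant strains, by a test of the difference itself. *Eeyore* minus *Winnie* was -1.01 on the log2 scale for *Chga* and -0.73 for *Chgb* (adjusted p = 0.0288 and 0.0409, limma), and in both genes all 3 *Eeyore* mice lay below all 3 *Winnie* mice. The call was lost in 6 of 21 alternatives for *Chga* and in 10 of 21 for *Chgb*. *Winnie* mouse 1 was the highest *Winnie* mouse for both, and *Eeyore* mouse 3 the lowest *Eeyore* mouse. The strains also differ in genetic background, which cannot be told apart from the *Muc2* allele.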

How the results depend on the processing

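The count of the 10 genes called in *Winnie* mice was 3 and became 1 with centring on epithelial markers, where 5 had an unadjusted p under 0.05, and 0 without both wild-type mice with pancreatic transcripts. It ranged from 2 to 4 when each mouse was left out. In *Eeyore* mice the count was 4, became 0 without both of those wild-type mice, and ranged from 3 to 5 when each mouse was left out. It split into 1 higher and 3 lower on the deposited scale, 0 and 3 with quantile normalization, 3 and 3 with median centring, and 0 and 4 with epithelial centring. The count of 2 between the strains became 0 without the intensity trend, 0 with only the groups compared, 1 with the mean over the probe sets of a gene and 0 without both wild-type mice, where 3, 4, 4 and 4 genes had an unadjusted p under 0.05. It ranged from 0 to 2 when each mouse was left out, with 0 without *Winnie* mouse 1 or *Eeyore* mouse 3. The causes were not tested. A fit with 1 wild-type mouse has less precision and also lacks the mice with pancreatic transcripts, and these cannot be told apart. Shares of all tested genes called under the alternatives were not counted, so these counts cannot be set beside the whole array. With mouse number as a replicate block the counts were 3, 4 and 2, and the block changed none of the 3. Of the 10 genes, none that was called changed direction. Among listed genes, with the mean over probe sets *Cpe* in *Winnie* mice (0.040), *Vamp2* (0.14) and *Ret* (0.015) in *Eeyore* mice turned from lower to higher, and *Krt8* in *Eeyore* mice (-0.022) from higher to lower with epithelial centring. None of these 4 values passed the test. Falls in the granule list numbered 3 to 8 in *Winnie* and 5 to 11 in *Eeyore* mice over the alternatives with at least 2 wild-type mice, and 0 and 3 without both. Over the same alternatives, falls of enteric neuron genes numbered 0 to 8 and 1 to 10, with the fewest under the filter at the 75th percentile, which left 1 gene tested. Falls of other hormone genes numbered 1 to 5 and 0 to 8, and those of transcription factors 0 to 3 and 1 to 4. The median change of tested probe sets moved from -0.09 in both strains to 0.32 and 0.24 with median centring and to -0.26 and -0.40 with epithelial centring.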
